A study of Mus musculus with 2 samples.

Results

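Macrophage and myeloid markers were followed through the ovaries of prenatally androgenized (PNA) and control mice on the Affymetrix Mouse Genome 430 2.0 chip, where a probe set (several short oligonucleotides against 1 transcript) gives 1 signal. The 10 genes were *Csf1r*, *Cd68*, *Cd163*, *Mrc1*, *Itgam*, *Itgb2*, *Lyz2*, *Aif1*, *Ptprc* and *Tyrobp*, and every probe set whose deposited gene symbol equals one of them was taken, which gave 13 of 45037 probe sets. The mice were ICR females. The dams of the PNA group had received daily subcutaneous injections of 70 µl sesame oil with 350 µg of DHT (dihydrotestosterone, an androgen) from gestation day 16 to 18, and the dams of the control group had received the oil alone. By the labels the ovaries were collected on diestrus, 5 in each group, and each group is represented by 1 array of whole-ovary RNA. The labels and the methods do not give the age of these mice or how RNA of the 5 ovaries was brought together.

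Macrophages are the most widespread leukocytes of the rodent ovary, where they clear atretic follicles and regressing corpora lutea and take part in ovulation and vessel growth. They depend on signals through the receptor CSF1R, carry integrins of the β2 family for adhesion, and take up debris through scavenger receptors into lysosomes. Few of their markers belong to them alone: *Ptprc* (CD45) and *Itgb2* are used by nearly all leukocytes, *Tyrobp* and *Itgam* also by natural killer cells and neutrophils, and *Mrc1* also by lymphatic and other endothelium. In whole-ovary RNA, fewer cells of a type and less RNA per cell cannot be told apart.

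Many myeloid genes are read from promoters bound by PU.1, an ETS-family factor encoded by *Spi1* whose sites have the purine-rich core GAGGAA. The RefSeq promoter table (GRCm38.p6, windows of 300 bases around each transcript start) was used for 8 windows of 7 of the 10 genes. A search by gene symbol found no window for *Itgb2*, *Tyrobp* and *Csf1r*, so the promoters of these genes were not examined. The 3 windows printed here belong to genes that span the range of the array ratios described below, *Ptprc* near the top, *Cd68* in the middle and *Mrc1* at no difference, and capitals mark GAGGAA or its reverse complement TTCCTC.
*Ptprc*, chr1:138175256-138175555, minus strand: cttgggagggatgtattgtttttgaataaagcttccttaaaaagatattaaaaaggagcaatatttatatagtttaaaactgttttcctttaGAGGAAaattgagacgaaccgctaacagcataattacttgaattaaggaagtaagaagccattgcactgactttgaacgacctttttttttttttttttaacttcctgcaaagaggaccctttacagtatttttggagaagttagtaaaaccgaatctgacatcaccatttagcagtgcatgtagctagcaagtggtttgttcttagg
*Cd68*, chr11:69666121-69666420, minus strand: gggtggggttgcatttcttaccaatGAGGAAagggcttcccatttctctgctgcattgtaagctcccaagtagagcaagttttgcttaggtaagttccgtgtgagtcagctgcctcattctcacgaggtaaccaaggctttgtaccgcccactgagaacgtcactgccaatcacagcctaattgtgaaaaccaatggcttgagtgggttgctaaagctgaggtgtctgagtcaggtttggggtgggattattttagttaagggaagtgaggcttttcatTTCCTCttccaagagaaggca
*Mrc1*, chr2:14229164-14229463, plus strand: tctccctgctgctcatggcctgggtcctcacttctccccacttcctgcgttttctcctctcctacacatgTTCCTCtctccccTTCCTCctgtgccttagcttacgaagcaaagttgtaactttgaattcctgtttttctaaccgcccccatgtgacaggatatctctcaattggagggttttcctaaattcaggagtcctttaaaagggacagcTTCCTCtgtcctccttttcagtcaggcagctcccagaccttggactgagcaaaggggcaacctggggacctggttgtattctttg
The motif, searched on both strands, was found 1 time in this window of *Ptprc*, 1 time on each strand of *Cd68* and 3 times, all as TTCCTC, in *Mrc1*. *Itgam* and *Aif1* also held it, so that 5 of the 8 windows used did, against 28.3% of all 32851 windows in the table. The other window of *Ptprc*, which overlaps the printed one, and the windows of *Lyz2* and *Cd163* did not hold it. A match of these letters is a description of the sequence and not a bound site.

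Because each group has a single array, no SD, interval or p-value is given, and the precision of every ratio is limited by that number. Values are signal intensities on the linear scale and log2 ratios of PNA over control. Genes were called higher or lower from 1.5-fold on, the study's selection criterion. Signals under the 40th percentile of an array, 30.4 for control and 30.6 for PNA ovaries, were treated as below a floor, and the brightest probe set stood for a gene. A probe set below the floor on both arrays is given no direction. Of 20753 genes, 14117 exceeded the floor on 1 or both arrays. Their log2 ratios had a median of -0.01, and the 10th and 90th percentiles were -0.26 and 0.27. As a measure of disagreement within a gene, the 5995 genes with at least 2 probe sets above the floor on both arrays had a median range of 0.15 between their probe sets, and the 90th percentile of that range was 0.43. The ovary identity of both arrays was plain: all 14 ovary marker genes were above the floor on both, among them the granulosa cell genes *Foxl2* (signals of 1521 in control and 1680 in PNA ovaries) and *Inha* (10386 and 10174) and the oocyte gene *Gdf9* (767 and 894). Of the 14, 3 were at least 1.5-fold higher and 1 lower: *Cyp19a1*, the aromatase gene, read 388 and 1578 (log2 ratio 2.02), the steroidogenic gene *Cyp17a1* 2709 and 5448 (1.01), the granulosa cell gene *Amh* 119 and 199 (0.74), and *Lhcgr*, the luteinizing hormone receptor gene, 1246 and 458 (-1.44). Each of the 4 differed by more than any of the macrophage and myeloid markers above the floor. Over all genes above the floor on 1 or both arrays, 2.49% were at least 1.5-fold higher and 2.16% lower.

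Macrophage and myeloid markers were brighter in PNA ovaries, but by small amounts. Of the 8 genes above the floor on both arrays, all 8 had a ratio above 1, *Mrc1* with 248 and 249 (log2 ratio 0.00), and 47.3% of all genes above the floor on both arrays had such a ratio. Their median log2 ratio was 0.36, or 1.28-fold, and their range was 0.00 to 0.66. *Itgam* was above the floor in PNA ovaries alone, so that its direction followed from the floor. Of these 9 genes only *Itgb2* was at least 1.5-fold higher, against 2.49% of all genes above the floor on 1 or both arrays, and none was at least 1.5-fold lower, against 2.16%. Where 25% brighter was enough, 5 of the 9 were higher, against 7.66% of all genes, and 1 of the 5 was *Itgam*, for which the floor allows only a bound of 1.03-fold. The remaining gene, *Cd163*, was below the floor on both arrays. The members share a tissue source and in part the same cells, so they are not independent measurements of the group difference.

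**Figure D1:**
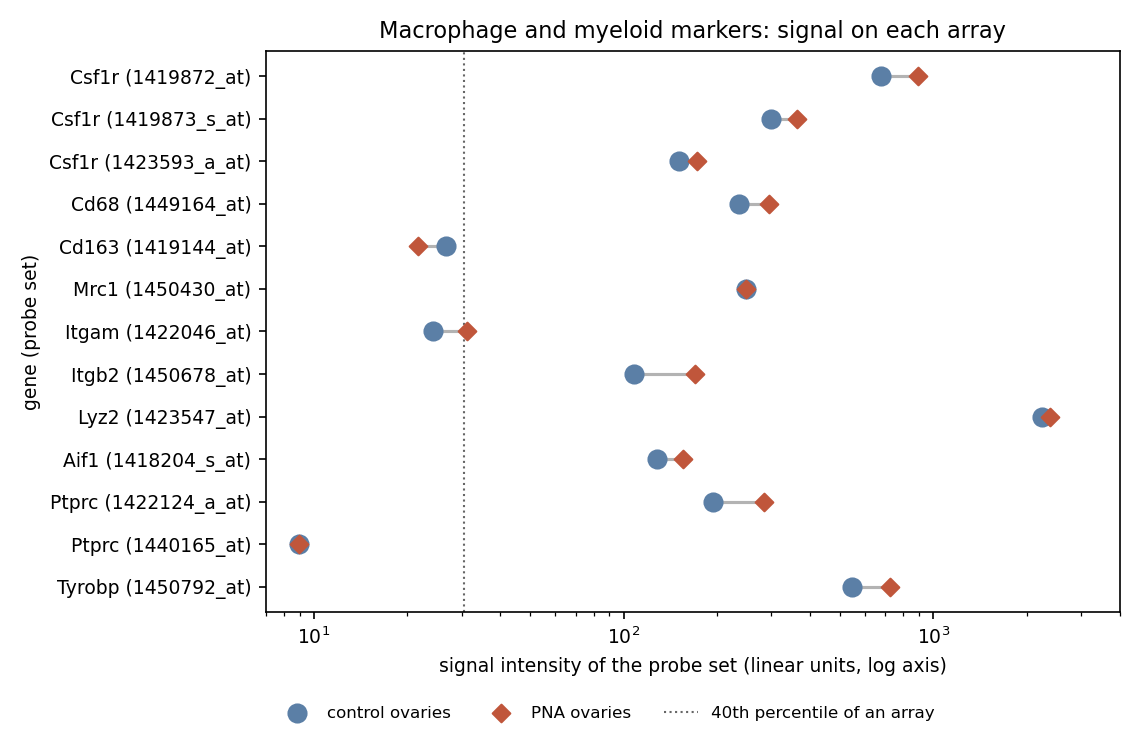
Signal intensity (linear units on a log axis) of each of the 13 probe sets of the macrophage and myeloid markers on the control array (circles) and the PNA array (diamonds), with the 40th percentile of the arrays as a dotted line. The diamond lies to the right of the circle by the most for *Itgb2* (108 to 170) and *Ptprc* (195 to 285), both symbols coincide for *Mrc1*, and *Cd163* and the dim probe set of *Ptprc* lie left of the dotted line on both arrays.

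The surface proteins common to all leukocytes had the largest ratios. *Itgb2* encodes the β2 chain that pairs with the α chains of the leukocyte integrins and is needed for firm adhesion to vessel walls. Its single probe set, aligned in the deposited annotation to chr10:77530332-77565708, read 108 in control and 170 in PNA ovaries, 1.58-fold higher with a log2 ratio of 0.66, and 2.00% of genes above the floor had a higher ratio. An offset of 50 on each signal, which pulls the ratios of dim probe sets towards 1, left a log2 ratio of 0.48 and no call. *Ptprc* encodes the receptor tyrosine phosphatase CD45, which sets the threshold of antigen receptor signals. Its brighter probe set (chr1:138063414-138175305) read 195 and 285, a log2 ratio of 0.55 or 1.46-fold, just under the criterion. Its second probe set, aligned near the start of this minus-strand gene at chr1:138171960-138172283, read 8.97 on both arrays and gives no information on direction. Equal signals of this kind occurred in 2033 of the 45037 probe sets (4.51%).

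Receptors and signalling adaptors of the myeloid lineage followed. *Tyrobp* (chr7:30413771-30417585) encodes DAP12, an adaptor with an immunoreceptor tyrosine-based activation motif (ITAM) that carries the signals of TREM2 and related receptors. It read 546 in control and 724 in PNA ovaries, a log2 ratio of 0.41 or 1.33-fold, and 5.40% of genes above the floor had a higher ratio. *Csf1r* encodes the receptor for CSF1 and IL-34, on which most tissue macrophages depend. Its 3 probe sets read 679 and 892, 300 and 362, and 151 and 173 in control and PNA ovaries. All 3 were brighter in PNA ovaries, with log2 ratios of 0.39, 0.27 and 0.20. Their range of 0.19 was above the median range of 0.15 within a gene, and their mean was 0.29. This was the only member with more than 1 probe set above the floor, and it is the only one in which the size of a ratio could be set against a second reading of the same gene. In the deposited annotation the 2 brighter probe sets align to the same stretch, chr18:61130710-61131133, and the dimmest spans chr18:61105853-61131124. The 3 readings of *Csf1r* therefore overlap and are not independent.

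Cytoplasmic and lysosomal markers had intermediate ratios, and the integrin chain gene *Itgam* was too dim to be ranked with them. *Cd68* (chr11:69664212-69666153) encodes a heavily glycosylated protein of late endosomes and lysosomes, and it read 236 and 295, a log2 ratio of 0.32. *Aif1* (chr17:35170985-35173278), which encodes the actin-bundling protein IBA1 used to stain macrophages and microglia, read 128 and 155, a log2 ratio of 0.28 or 1.21-fold. Its probe set carries the suffix _s_at, which marks probe sets that can match several transcripts. *Itgam* (chr7:128062705-128118220) encodes CD11b, the α chain that pairs with the product of *Itgb2* to form complement receptor 3. It read 24.3 in control ovaries, below the floor, and 31.3 in PNA ovaries, just above it. Against the floor it was at least 1.03-fold higher, so its measured log2 ratio of 0.37 rests on a signal close to background.

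The brightest marker and the mannose receptor showed almost no difference. *Lyz2* encodes the lysozyme of mouse macrophages and neutrophils, and it read 2246 in control and 2376 in PNA ovaries, a log2 ratio of 0.08. In the deposited annotation its probe set aligns at chr10:117277332-117282305 and also at chr10:117287794-117292901, the place where the probe sets of its paralog *Lyz1* align, so the signals of the 2 lysozyme genes cannot be separated here. The 2 bright probe sets named for *Lyz1* had log2 ratios of 0.10 (3906 and 4195) and 0.15 (1742 and 1928), and the third was below the floor at 6.66 and 8.32. *Mrc1* (chr2:14229413-14332055), which encodes the mannose receptor CD206 of resident macrophages and sinusoidal endothelium, read 248 and 249, a log2 ratio of 0.00. *Cd163* (chr6:124304655-124330540) encodes the scavenger receptor for hemoglobin bound to haptoglobin. It read 26.8 and 21.7, below the floor on both arrays, and has no direction.

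**Figure D2:**
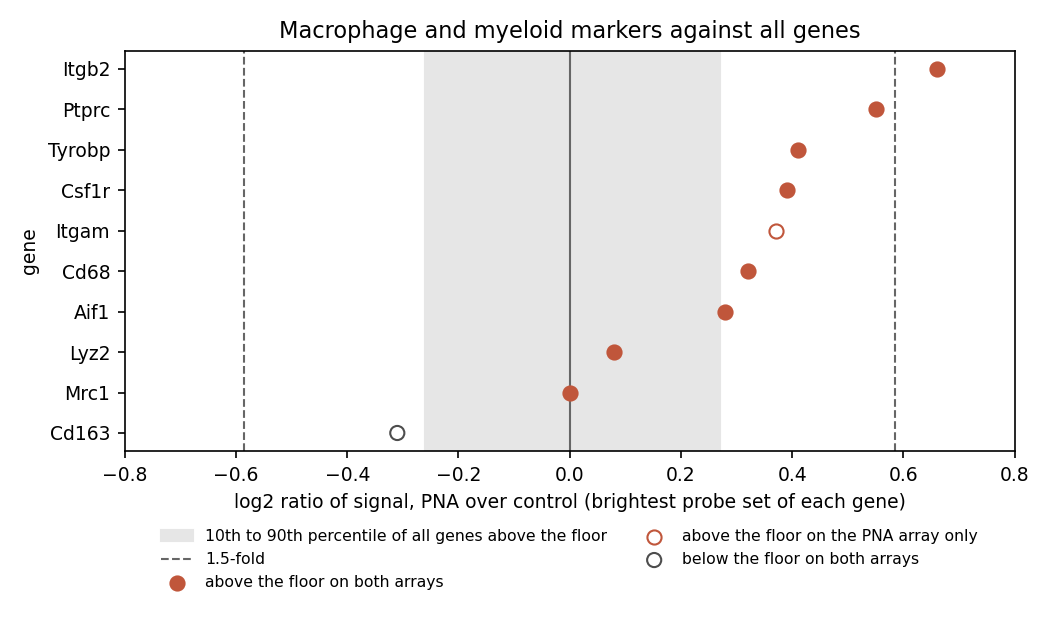
Log2 ratio of signal (PNA over control) for the brightest probe set of each macrophage and myeloid marker, ordered by ratio, with the 10th to 90th percentile of all genes above the floor (-0.26 to 0.27) shaded and the 1.5-fold criterion dashed. *Itgb2* at 0.66 lies past the criterion, *Ptprc*, *Tyrobp*, *Csf1r*, *Cd68* and *Aif1* lie between the shaded band and the criterion, and *Lyz2* and *Mrc1* lie inside the band. Open symbols are *Itgam*, above the floor on the PNA array only, and *Cd163*, below it on both.

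Genes that work with the members were then compared. Other macrophage surface and scavenger genes had a median log2 ratio of 0.29 over the 12 of 16 above the floor on both arrays, with 10 ratios above 1, 1 gene higher and 1 lower by the criterion. Of all genes above the floor on both arrays, 47.3% had a ratio above 1. Over all genes above it on 1 or both arrays, 2.49% were higher and 2.16% lower. With *Cd209f*, above the floor in PNA ovaries alone, the median was 0.37, and it fell to 0.22 where the probe sets of a gene were averaged and to 0.21 with an offset of 50. The gene called higher was *Cd14*, the co-receptor for bacterial lipopolysaccharide (109 to 173, log2 ratio 0.68). The gene called lower was *Cd83*, a marker of activated dendritic and B cells (186 to 122, -0.61). *Adgre1*, which encodes the F4/80 antigen that defines most mouse macrophages, read 202 and 220, a log2 ratio of 0.13. Most of the scavenger and phagocytic receptor genes had a ratio above 1: *Lyve1*, a hyaluronan receptor of resident macrophages and lymphatic endothelium, read 79.9 and 111 (0.48), *Mertk*, a receptor for apoptotic cells, 190 and 217 (0.19), and *Msr1*, a scavenger receptor, 68.2 and 88.2 (0.37). *Clec10a*, *Folr2* and *Stab1* of the same list had log2 ratios of 0.40, 0.21 and 0.06. *Siglec1*, the sialoadhesin gene, went the other way at 42.6 and 32.9 (-0.38). Its PNA signal lay near the floor, and its remaining probe sets were below the floor on both arrays. Dimmer probe sets above the floor on both arrays had smaller log2 ratios, 0.27 for *Lyve1* and 0.17 and 0.12 for *Msr1*. *Marco*, *Timd4* and *Vsig4* were below the floor on both arrays. The macrophage label therefore rests on *Csf1r*, *Cd68*, *Mrc1* and *Adgre1*, which were well above the floor, and not on *Cd163*.

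The CSF1 axis itself was split. *Csf1*, the main growth factor of macrophages, read 153 and 216 on its brightest probe set (log2 ratio 0.50), while *Il34*, the other ligand of the receptor, read 85.9 and 61.5 (-0.48). Dimmer probe sets of *Csf1* above the floor on both arrays read 71.6 and 96.1 (0.42) and 32.0 and 31.9 (0.00). Neither *Csf1* nor *Il34* passed the criterion, and none of the 9 genes above the floor on both arrays in the list of receptor ligands and myeloid growth factor genes did. The median of that list was 0.06. *Spi1*, which encodes PU.1, read 44.3 and 47.3 (log2 ratio 0.09).

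Lists of genes related to the adaptor DAP12 and to the β2 integrin chain had medians near the 0.36 of the members. On their brightest probe sets, the genes named here from these lists had log2 ratios from -0.24 (*Syk*) to 0.85 (*Icam1*). For comparison, 47.3% of all genes above the floor on both arrays had a ratio above 1. Of all genes above the floor on 1 or both arrays, 2.49% were called higher and 2.16% lower. Among ITAM adaptor partners and kinases, 13 of the 15 genes above the floor had a ratio above 1, none passed the criterion in either direction on its brightest probe set, and the median was 0.27. *Fcgr2b*, the inhibitory Fc receptor gene, read 225 and 274 there (log2 ratio 0.28), but 2 of its dimmer probe sets were past the criterion, with 109 and 200 (0.88) and 129 and 205 (0.66). *Fcer1g*, the adaptor of Fc receptors that resembles *Tyrobp*, read 254 and 323 (log2 ratio 0.35), whereas *Trem2*, whose receptor signals through DAP12, read 86.3 and 77.7 (-0.15). The related receptor gene *Trem1* read 60.7 and 65.5 (0.11), and the kinase gene *Syk* read 87.4 and 74.2 (-0.24). Among leukocyte integrins, cytoskeletal genes and subunits of the phagocyte oxidase, all 18 were above the floor, 17 had a ratio above 1, 2 were called higher and none lower, with a median of 0.38. The 2 were *Itgal*, the α chain of LFA-1 and a partner of *Itgb2* (50.8 to 83.8, log2 ratio 0.72), and *Icam1*, the ligand of LFA-1 on endothelium and other cells (103 to 185, 0.85). *Itgax*, the α chain CD11c, which also pairs with *Itgb2*, read 43.5 and 45.5 (0.06). *Cd52*, a small surface glycoprotein of leukocytes, lay just under the criterion at 1.49-fold (194 to 290).

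Genes that mark macrophage activation states were mostly dim. Of 10 genes listed as alternative activation markers, 5 were above the floor on both arrays, *Socs3* alone was called higher and none lower, and the median log2 ratio was 0.00. *Arg1*, which encodes arginase, was below the floor in control ovaries (14.9) and read 50.6 in PNA ovaries, at least 1.66-fold higher. *Socs3*, an inhibitor of cytokine signalling that many cell types use and that does not by itself mark this state, read 134 and 226 (log2 ratio 0.75). On its remaining probe sets the log2 ratio was 0.29 and 0.58. Of 10 pro-inflammatory markers, 6 were above the floor, none passed the criterion, and the median was 0.11. The shares over all genes above the floor on 1 or both arrays were 2.49% higher and 2.16% lower. The largest change among them was that of *Fpr2*, a formyl peptide receptor (49.5 to 59.96, 0.28), and *Il1b*, which encodes interleukin-1β, read 55.6 and 61.5 (0.14).

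**Figure D3:**
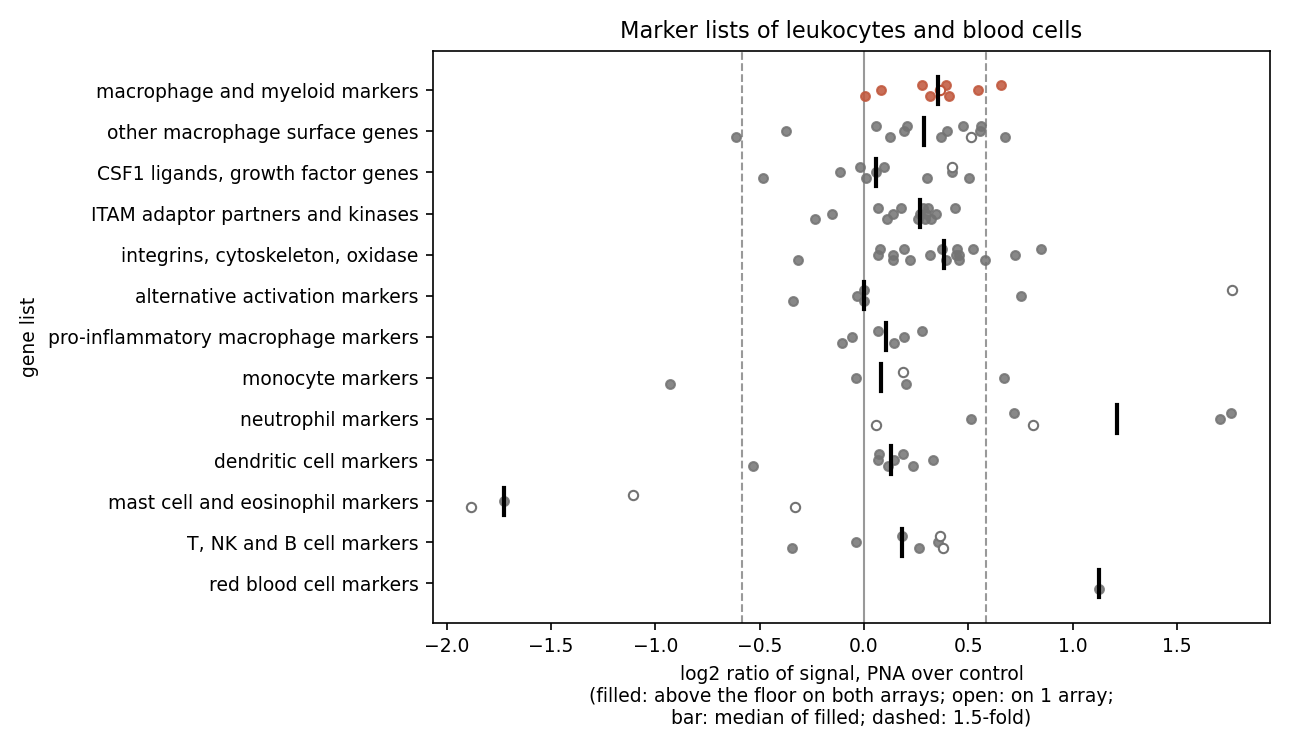
Log2 ratio of signal (PNA over control) for every gene that exceeded the floor in each list of leukocyte and blood cell genes, 1 point per gene, filled where both arrays exceeded it and open where 1 did, with the median of the filled points as a bar and the 1.5-fold criterion dashed. Open points are measured ratios against a signal below the floor and stand only for a bound. The macrophage and myeloid markers (median 0.36) overlap the other macrophage surface genes (0.29) and the integrin, cytoskeleton and oxidase genes (0.38), while the filled neutrophil genes extend to 1.76 and the 1 filled mast cell gene, *Cpa3*, lies at -1.73.

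Other blood cell types differed from this pattern in both directions. Over the 12 lists of leukocyte and blood cell genes other than the members, 87 of 153 genes were above the floor on both arrays, 67 (77.0%) had a ratio above 1, 9 were called higher and 3 lower. Among all genes above the floor on both arrays, 47.3% had a ratio above 1. Among all genes above it on 1 or both arrays, 2.49% were called higher and 2.16% lower. Of the 4 neutrophil genes above the floor on both arrays, 3 were called higher and none lower. These were *S100a8* (54.0 to 176, log2 ratio 1.71) and *S100a9* (46.7 to 158, 1.76), which encode the subunits of calprotectin, and *Lcn2*, an iron-siderophore-binding protein of neutrophil granules and epithelia (31.2 to 51.3, 0.72). *Ngp*, a neutrophil granule gene, was below the floor in control ovaries and at least 1.20-fold higher. The granule genes *Elane*, *Mpo* and *Camp* and the receptor gene *Cxcr2* were below the floor on both arrays. Of the 4 monocyte genes above the floor on both arrays, *Plac8*, which many other tissues also express, was higher (787 to 1254, 0.67) and *Nr4a1*, a transcription factor of patrolling monocytes that is also an immediate-early gene of the ovary, was lower (1515 to 794, -0.93). *Ccr2*, the chemokine receptor of inflammatory monocytes, read 31.6 and 36.3, next to the floor. Its remaining probe sets were also near the floor and went both ways. A probe set read 32.7 and 34.9 (0.09), another was at least 1.02-fold higher, and another at least 1.16-fold lower. None of the 8 dendritic cell genes or of the 5 T, NK and B cell genes above the floor on both arrays passed the criterion on the brightest probe set. Their medians were 0.13 and 0.18. The largest change in the dendritic list was that of *Cd24a*, which epithelia also express (507 to 351, -0.53). A dimmer probe set of this gene was past the criterion at 190 and 114 (-0.74), and the gene was called lower where its probe sets were averaged. In the lymphocyte list *Cd3d*, a T cell receptor subunit gene, read 31.5 and 40.3 (0.35) and *Cd8a*, a coreceptor gene, 41.6 and 32.8 (-0.35).

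Mast cell genes were dimmer in PNA ovaries, though most could be measured in control ovaries alone. Of 11 mast cell and eosinophil genes, only *Cpa3* was above the floor on both arrays and it was called lower. Another 3 were above the floor in control ovaries alone, so that their direction followed from the floor and only bounds can be given. *Cpa3*, the carboxypeptidase of mast cell granules, had a signal of 133 in controls against 40.04 in PNA ovaries (log2 ratio -1.73). *Cma1* and *Mcpt4*, both mast cell chymases, read 105 and 60.3 in control ovaries and fell below the floor in PNA ovaries, at least 3.42-fold and at least 1.97-fold lower. *Tpsb2*, a mast cell tryptase, was at least 1.09-fold lower. The markers *Fcer1a* and *Ms4a2* were below the floor on both arrays.

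Red blood cell transcripts also differed between the arrays. Among genes with a probe set of their own, *Alas2*, the heme synthesis enzyme of erythroid cells, was the only one of 6 above the floor and read 49.96 and 109 (log2 ratio 1.12). The α and β globin genes were read by 4 probe sets that each name several globin genes, which were looked up after the values of the red cell list were seen. They were 2.96-fold to 4.92-fold brighter in PNA ovaries: the 3 shared by *Hba-a1* and *Hba-a2* went from 1058 to 3129, from 1601 to 7873 and from 2418 to 7865, and the 1 shared by 4 β globin genes went from 2017 to 6298. The neutrophil genes, most members and the globin genes were brighter on the same array, while the mast cell genes were dimmer on it, and the part of blood left in the ovaries in the ratios of the members was not tested. The probe set shared by the monocyte genes *Ly6c1* and *Ly6c2* read 409 and 439 (log2 ratio 0.10). The 2 probe sets that name *Ear2*, an eosinophil-associated ribonuclease gene, together with its paralogs were dimmer in PNA ovaries, 1 at 72.0 and 51.0 (-0.50) and 1 at 41.9 in control ovaries and below the floor in PNA ovaries, at least 1.37-fold lower.

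**Figure D4:**
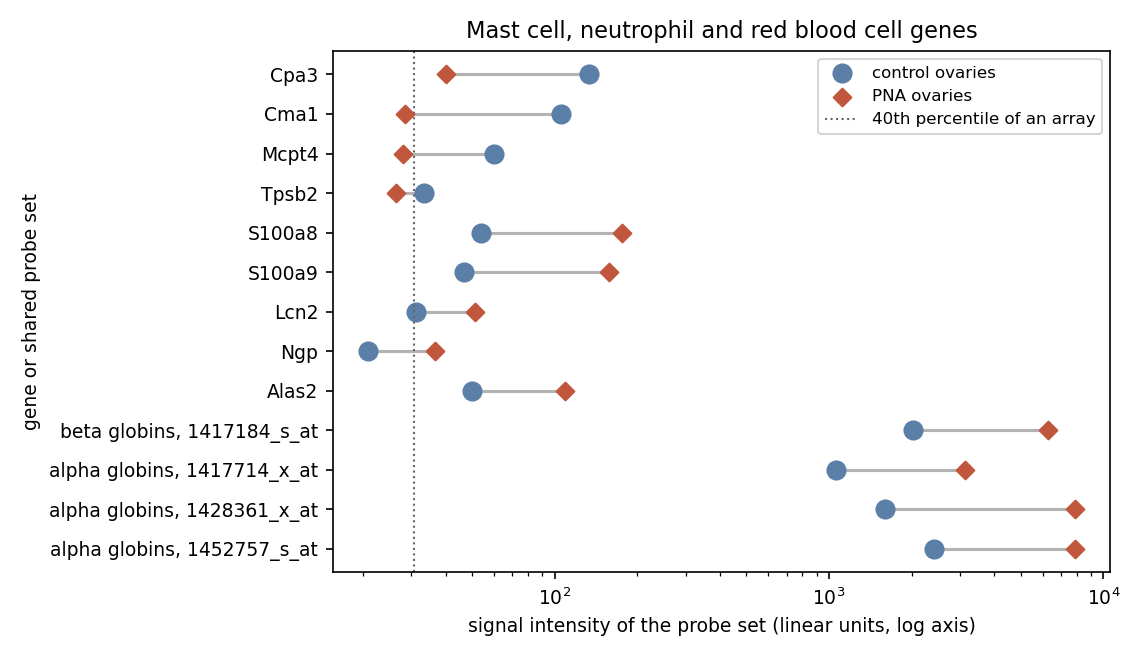
Signal intensity (linear units on a log axis) of mast cell genes, neutrophil genes, *Alas2* and the globin probe sets shared by several genes on the control array (circles) and the PNA array (diamonds), with the 40th percentile of the arrays as a dotted line. The mast cell genes lie further left in PNA ovaries, *Cpa3* at 40.04 against 133, and the neutrophil and red cell genes further right, *S100a8* at 176 against 54.0 and the brightest globin probe set of control ovaries at 7865 against 2418.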

How the data were processed

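Ovarian RNA of the PNA and control groups was hybridised to 1 GeneChip Mouse Genome 430 2.0 array per group. Tables deposited by the authors hold the linear signal intensity of every probe set, and its log2 value after centring on the mean of the arrays. The largest difference between the log2 ratios of these 2 scales was 2e-06. No source used here names the software of probe summary and normalization. Columns holding the authors' own fold changes and lists of differential genes were not used.

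After 64 control probe sets were left out, log2 ratios of PNA over control were computed in Python 3.11.15 (numpy 2.4.6, pandas 2.3.3). Arrays have no depth, and their number limits the precision. No test was run. Steps were tested on simulated ratios. Gene names came from the deposited annotation, with 35046 probe sets matched to RefSeq (GRCm38.p6) by Entrez ID. The annotation names no genome build, but 97.5% of 34754 alignments overlapped the matched gene in GRCm38.p6.

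The members and the 13 wider gene lists were chosen with earlier results of these data known. Named genes were all members and their direct partners and, from each list, up to 6 genes past 1.5-fold or else the gene with the largest change. Some genes that this rule or a count would name are not reported here. Others are given because a statement turned on them and were named after their values were seen. Alternatives covered scaling (median, quantile, loess with fraction 0.3 in statsmodels 0.14.6), an offset of 50, the floor, the probe set chosen, the fold threshold and the series values.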

Additional observations from a re-analysis of the deposited data

How the results depend on the processing

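The 8 members above the floor on both arrays kept a ratio above 1 under median, quantile and loess scaling. *Mrc1* stayed at log2 ratios of 0.00 to 0.02. The offset and the series values could not reverse a direction. An offset added to both signals keeps their order, and the series values hold the same ratios. Averaging the probe sets of a gene changed only *Csf1r*, whose probe sets were all brighter in PNA ovaries. The median of the members stayed within 0.1 of its value on the log2 scale. The call of *Itgb2* was the one that changed: with 50 added to both signals its log2 ratio was 0.48, and 0 member genes and 0 member probe sets were at least 1.5-fold higher. At a threshold of 2-fold 0 member genes and 0 member probe sets were higher, and where 25% brighter on either array was enough, 5 genes and 5 probe sets were, *Itgam* among them, against 7.66% of all genes. Over the wider lists, with genes above the floor on 1 or both arrays, 11 genes (11.2%) were higher and 5 (5.10%) lower, against 2.49% and 2.16% of all genes. The counts of higher and lower genes in these lists were 35 and 11 at the 25% threshold, 4 and 3 at 2-fold, and 6 and 3 with the offset. Of all genes, 7.66% were at least 25% brighter in PNA ovaries. No share of all genes was computed for the other counts, so they cannot be set against the background. The counts over 1 or both arrays take measured ratios, also against a signal below the floor. With the floor required on both arrays, 9 of 87 genes of the wider lists were higher and 3 lower. *Arg1* and *Ngp*, counted as higher, and *Cma1* and *Mcpt4*, counted as lower, are then left out. For *Ngp* the floor allows only a bound of 1.20-fold. The floor on both arrays left 8 members (without *Itgam*), as did dropping _s_at and _x_at probe sets (without *Aif1*). All 8 had a ratio above 1 in both settings, which leave the ratios of the remaining members unchanged. No paired analysis was possible because each group has 1 array. The dim signals of *Itgam*, *Cd163* and most granule and lymphocyte genes limit what can be read from them.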
